A study of Caenorhabditis elegans with 2 samples.

Results

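The genes examined here are the 5 actin genes of Caenorhabditis elegans, act-1, act-2, act-3, act-4 and act-5, taken by name from the Ensembl annotation of WBcel235 out of 19973 protein-coding genes. For each gene, every summit was collected that lay between 1000 bp upstream of the annotated start and 500 bp beyond the annotated end of the gene, a stretch called the window of the gene below. The values are from chromatin immunoprecipitation with sequencing (ChIP-seq) against AMA-1, the large catalytic subunit of RNA polymerase II. The material was whole worms of the strain N2, a wild isolate, at the L3 larval stage, pooled from males and females, with no treatment named and the age labelled as unknown. There were 2 biological replicates of this 1 group, labelled with fragments of 150 to 350 bp. Because there was no second condition and no untagged or untreated group among the samples, no test between samples was possible, and the text gives positions, values and counts. Strength is the signal value that the authors' lists give for each region, in units that no source used here names, and it is compared only within a list.

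Actin is the protein of the thin filaments of muscle and of the cortex, microvilli and contractile ring of other cells. In this worm act-1, act-2, act-3 and act-4 are expressed in body wall muscle and other tissues, while act-5 builds the microvilli of the intestine. In many worm transcripts the first part of the RNA is replaced by a spliced leader (trans-splicing), and for these the annotated 5′ end marks the splice acceptor and lies downstream of the place where the polymerase started. The L3 stage is an actively growing larva.

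The genes act-3, act-2 and act-1 lie in this order within 10726 bp of chromosome V, from 11071690 to 11082415. The gene act-3 (WBGene00000065, 11071690 to 11074498, minus strand) and act-2 (WBGene00000064, 11076777 to 11078154, minus strand) are 2278 bp apart. The gene act-1 (WBGene00000063, 11081052 to 11082415, plus strand) points away from act-2, with 2897 bp between both 5′ ends. The gene act-4 (WBGene00000066, 4960621 to 4964413, plus strand) is on chromosome X, and act-5 (WBGene00000067, 13604412 to 13606066, minus strand) is on chromosome III. The windows of the 5 genes share no base, so no summit was counted for more than 1 of them.

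The optimal list held 3052 regions with signals from 57.9 to 1168 (median 79.2). The permissive lists held 30000 regions each, with median signals of 24.6 in the pooled list, 17.3 in replicate 1 and 9.10 in replicate 2, and ranks are used between lists because the signals differ in level. The number of reads behind them is unknown.

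Sequences from a peak near an annotated start of each of the 5 genes are given first, because they show which of these stretches have the letters of a TATA box. They are from the WBcel235 genome (RefSeq), the same assembly as ce11, 5′ to 3′ in gene direction. For act-4 the 121 bases run from the start of the peak to the last base before the annotated 5′ end. They do not reach its summit, at 4960660. For the others 75 bases on each side of the summit are shown, the summit being in the optimal list for act-1 and act-2 and in the permissive pooled list for act-3 and act-5. Capitals mark TATAAA, the core of the TATA box, and AATAAA, the poly(A) signal, on either strand, so that TTTATT is AATAAA on the other strand.
act-4 start, chrX:4960500-4960620, plus strand: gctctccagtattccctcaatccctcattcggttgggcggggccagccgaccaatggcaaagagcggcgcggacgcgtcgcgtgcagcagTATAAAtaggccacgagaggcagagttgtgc
act-1 upstream, chrV:11080614-11080764, plus strand: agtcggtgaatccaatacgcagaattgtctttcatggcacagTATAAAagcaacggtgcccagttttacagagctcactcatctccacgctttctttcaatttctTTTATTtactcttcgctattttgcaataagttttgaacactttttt
act-2 upstream, chrV:11078425-11078575, minus strand: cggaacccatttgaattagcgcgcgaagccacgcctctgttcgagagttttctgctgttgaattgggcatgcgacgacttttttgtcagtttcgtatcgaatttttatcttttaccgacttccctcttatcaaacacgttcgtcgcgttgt
act-3 intron, chrV:11073458-11073608, minus strand: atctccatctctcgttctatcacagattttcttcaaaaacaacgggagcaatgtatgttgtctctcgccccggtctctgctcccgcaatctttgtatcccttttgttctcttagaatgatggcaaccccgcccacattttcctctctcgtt
act-5 upstream, chrIII:13606347-13606497, minus strand: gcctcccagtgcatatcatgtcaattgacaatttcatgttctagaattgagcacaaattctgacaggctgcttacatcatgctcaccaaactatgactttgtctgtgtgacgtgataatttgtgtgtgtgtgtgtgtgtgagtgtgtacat
Among these stretches TATAAA stood 31 bases before the annotated 5′ end of act-4 and 396 bases before that of act-1, both times on the strand of the gene. In the act-1 stretch AATAAA was also found, on the other strand. Of the 3052 optimal summits, 8.13% had TATAAA and 16.7% AATAAA on either strand within 75 bp, where matches of different motifs were counted even if they overlapped. Of all protein-coding genes, 22.0% had TATAAA on either strand in the 121 bases before the 5′ end. No match of these letters was found in the stretches shown for act-2, act-3 and act-5. The other upstream summits of these genes in the permissive lists were not searched.

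An optimal summit lay in the window of 4 of the 5 actin genes, against 11.9% of all protein-coding genes. These were act-1, act-2, act-3 and act-4, with 6 optimal summits between them. The genes act-1 and act-2 had 2 each, and 4.08% of all protein-coding genes had 2 or more. Within 500 bp of the annotated 5′ end lay a summit for act-1, act-2 and act-4, against 6.07% of all protein-coding genes. Within 500 bp of the 3′ end lay a summit for act-1, act-2 and act-3, against 5.81%. Different optimal summits at both ends were found at act-1 and act-2, against 1.91% of all genes. The gene act-5 had none in the optimal list. All 5 genes had a summit in the permissive pooled list of 30000 regions, as did 48.1% of all protein-coding genes. All 5 also had one in the replicate 1 list (46.4% of all genes) and in the replicate 2 list (52.5%). Within 500 bp of the 5′ end all 5 had a summit in the pooled list (31.8% of all genes), in replicate 1 (30.8%) and in replicate 2 (32.0%). Within 500 bp of the 3′ end all but act-5 had one in the pooled list (32.1%), in replicate 1 (29.8%) and in replicate 2 (34.3%).

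**Figure D1:**
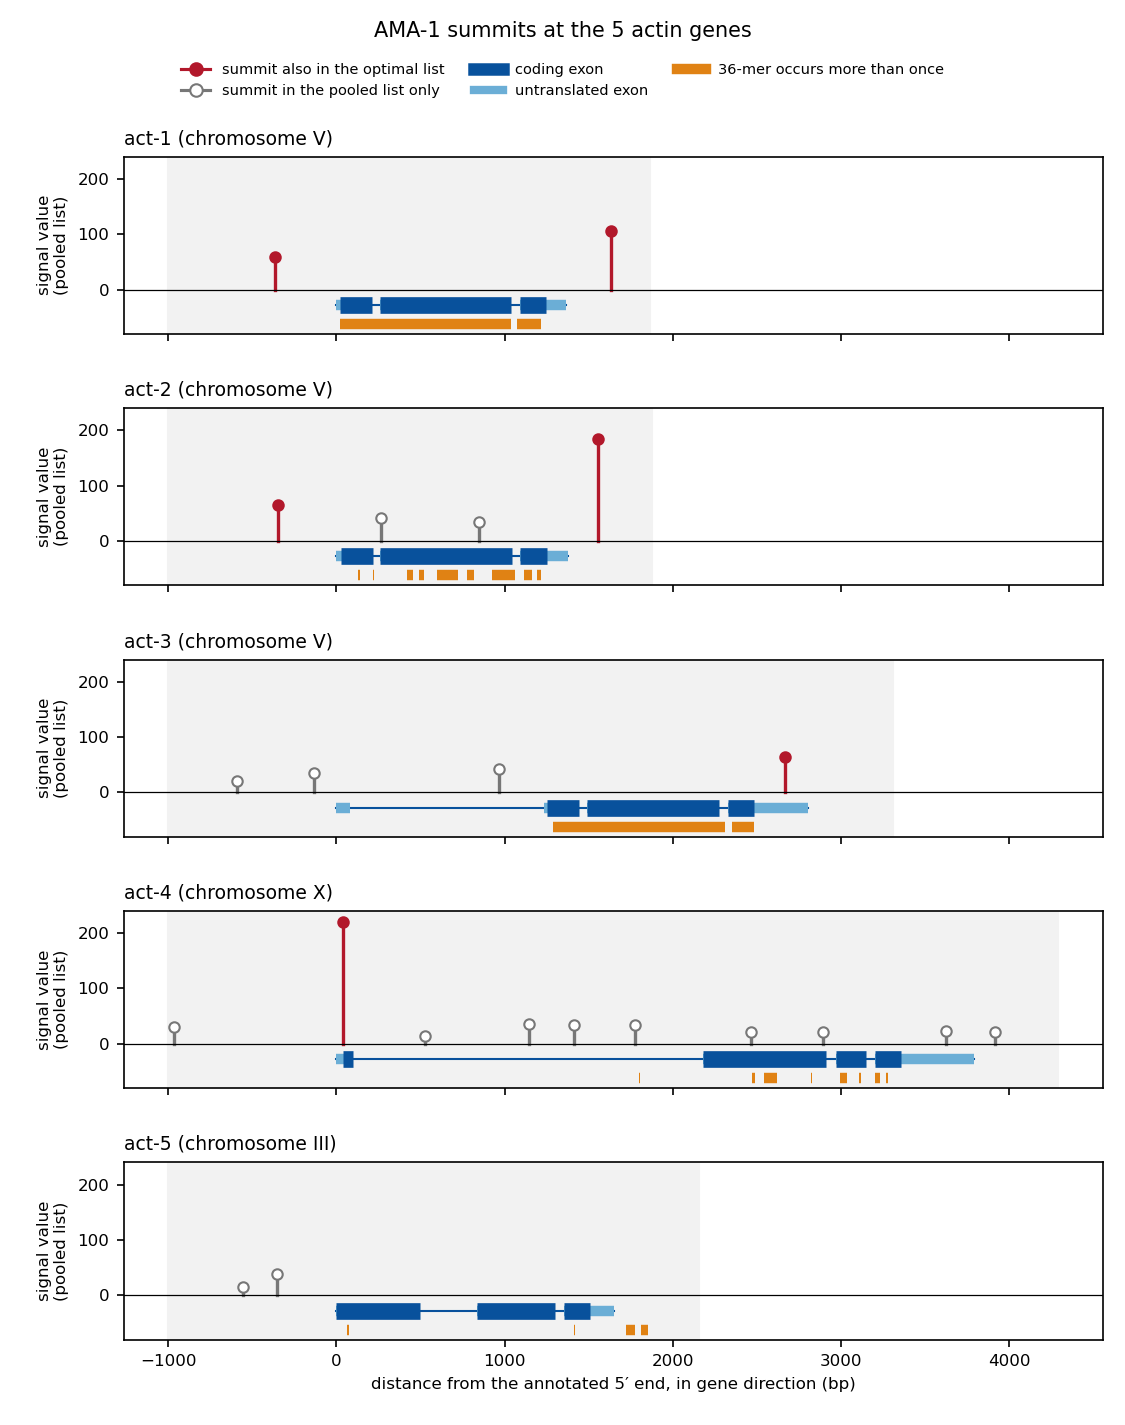
Each panel plots the signal value of the pooled list (vertical) at every summit in the window of 1 actin gene (grey area) against the distance from the annotated 5′ end in gene direction in bp (horizontal); filled red points are also in the optimal list, open points are not, and the bars show the exons of the longest transcript and, in orange, positions whose 36 bases occur more than once in the genome. The act-4 summit at the 5′ end (219) and the act-2 summit past the 3′ end (185) stand above all others, and no summit lies over the orange bars of act-1 and act-3.

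The strongest actin peak of the optimal, pooled and replicate 2 lists was that of act-4, which encodes a muscle and cytoplasmic actin. In replicate 1 the peak past the 3′ end of act-2 was stronger. The act-4 summit at 4960660 on chromosome X had a signal of 219 and rank 131 of 3052 in the optimal list, and it lay in the 5′ UTR, 39 bp inside the gene and 2 bp before the start codon. In replicate 1 the nearest summit was at 4960631, with a signal of 140 and rank 196 of 30000. In replicate 2 it was at 4960655, with a signal of 60.2 and rank 230 of 30000. Both replicates thus placed the peak within 29 bp of the pooled summit and at a similar rank. Of the 2806 optimal summits found in both replicate lists, 8.52% had ranks closer together, and 80, act-4 itself included, ranked at least as high in both.

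The rest of act-4 carried many summits, of which none was in the optimal list. The pooled list held 10 summits in the 5293 bp of its window, the one above included. That is 1.89 per kb, a density above that of 99.1% of all protein-coding genes in the pooled list, 98.6% in the replicate 1 list and 99.2% in the replicate 2 list, where the window also held 10 summits each. The median over all genes was 0 per kb in the pooled and replicate 1 lists and 0.150 per kb in the replicate 2 list. The first intron of act-4, 2081 bp long, held 4 of the pooled summits. They were at 4961151 (signal 14.4, rank 29698), 4961765 (36.1, rank 7939), 4962037 (34.2, rank 8736) and 4962397 (34.4, rank 8617).

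Within this intron the replicates had their strongest summits at different places. Replicate 1 had 5 intronic summits. They were at 4961143 (signal 19.6, rank 12480), 4961543 (14.1, rank 19466), 4961999 (47.4, rank 2412), 4962198 (21.2, rank 11029) and 4962400 (13.9, rank 19765). Replicate 2 had 3, at 4961708 (signal 14.0, rank 7202), 4962351 (24.1, rank 2217) and 4962598 (11.9, rank 9746). A second annotated transcript of act-4 starts 2254 bp downstream of the first, past this intron. From that start the strongest summit in the intron lay at -524 bp in replicate 2, -876 bp in replicate 1 and -1110 bp in the pooled list.

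Further down, the coding exons of act-4 held pooled summits at 4963088 (signal 22.2, rank 17359) and 4963514 (21.1, rank 18696). Replicate 1 had summits there at 4963088 (10.6, rank 26254) and 4963508 (16.6, rank 15911). Replicate 2 had them at 4963085 (11.96, rank 9700) and 4963296 (7.75, rank 18794). Around 4963088 the summits of both replicates lay within 3 bp of each other, and the pooled list was made from both of them.

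At the 3′ end of act-4 the pooled list had a summit in the 3′ UTR at 4964246 (signal 23.1, rank 16384) and another at 4964538 (22.0, rank 17644), 125 bp past the 3′ end. The second lies in a coding exon of M03F4.6, a gene on the opposite strand whose 3′ end is at the same base as that of act-4, so that it cannot be assigned to either gene. Replicate 1 had 1 summit here, at 4964557 (17.2, rank 15031). Replicate 2 had summits at 4964075 (17.2, rank 4743), 4964274 (8.13, rank 17604) and 4964541 (5.77, rank 26612). Upstream, 952 to 993 bp before the 5′ end, all 3 permissive lists had a summit, at 4959657 in the pooled list (31.1, rank 10298), 4959628 in replicate 1 (19.9, rank 12173) and 4959669 in replicate 2 (11.8, rank 9915). In the pooled list act-4 was therefore strong at its start and much weaker over its body and end. In the replicate lists the strongest summits of the first intron ranked higher, at 2412 in replicate 1 and 2217 in replicate 2, at different places.

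The gene act-2 encodes an actin of muscle that also acts in the early embryo. It had the highest 3′ peak of the 5 genes. The summit at 11076599, 178 bp past its 3′ end and between coding genes, had a signal of 185 and rank 196 in the optimal list, and it lay inside the annotated noncoding gene T04C12.14. In replicate 1 the summit was at the same base, with a signal of 177 and rank 104. In replicate 2 the nearest summit, at 11076545, had a signal of 11.8 and rank 9905, so this peak rests on replicate 1. Among the 98 optimal summits that ranked 104 or higher in replicate 1 and were found in both lists, 3, this one included, ranked 9905 or lower in replicate 2.

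Upstream of act-2 an optimal summit lay at 11078500, 346 bp before the 5′ end and inside the overlapping noncoding genes T04C12.18 and T04C12.24, with a signal of 64.7 and rank 2391. Replicate 1 had it at 11078498 (58.3, rank 1517) and replicate 2 at 11078599 (12.4, rank 9143), 99 bp away. Replicate 2 had 2 more summits further upstream, at 11078822 (10.6, rank 11739) and 11079134 (5.403, rank 28455), where the other lists had none. Inside the gene the pooled list had summits at 11077303 (34.2, rank 8706) and 11077890 (41.6, rank 6073), both in coding exons. Replicate 1 had them at 11077313 (33.4, rank 5020) and, in an intron, at 11077906 (31.3, rank 5694), and replicate 2 had none inside the gene. Each of the summits of act-2 was therefore higher in rank in replicate 1 than in replicate 2, where it was matched at all.

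The gene act-1, which encodes an actin of body wall muscle, had both of its optimal summits outside the gene. The stronger, at 11082683, lay 268 bp past the 3′ end inside the annotated noncoding gene T04C12.29, with a signal of 106 and rank 781. Replicate 1 had it at 11082736 (81.0, rank 732) and replicate 2 at 11082663 (29.9, rank 1291). The weaker, at 11080689, lay 363 bp upstream, with a signal of 59.5 and rank 2871, close to the weakest optimal peak (57.9). Replicate 1 had it at 11080767 (46.2, rank 2546) and replicate 2 at 11080676 (19.1, rank 3771). These were the only summits in the window of act-1 in any of the 4 lists, and both replicates held both of them.

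The gene act-3 encodes the same protein as act-1. Its 1 optimal summit, at 11071830, lay in the 3′ UTR 140 bp before the 3′ end, with a signal of 64.01 and rank 2453. Replicate 1 had it at 11071809 (52.6, rank 1915) and replicate 2 at 11071829 (12.6, rank 8939). Past the 3′ end of act-3 no list had a summit, unlike at act-1 and act-2, where the 3′ summits lay outside the gene.

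Around the start of act-3 there were summits below the optimal list. A transcript of act-3 starts 1234 bp inside the annotated 5′ end, and in the intron before it the pooled list had a summit at 11073533 (41.5, rank 6085), at -269 bp from that start. Replicate 1 had it at 11073537 (47.6, rank 2393) and replicate 2 had no summit there. At the outer 5′ end the pooled list had summits at 11074629 (35.9, rank 8025) and 11075089 (20.1, rank 20067), which replicate 1 had at 11074621 (33.4, rank 5009) and 11075089 (21.1, rank 11100). Replicate 2 had 1 summit here, at 11074551 (10.8, rank 11505), 53 bp before the 5′ end.

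The gene act-5, which encodes the actin of intestinal microvilli, was the weakest of the 5 in the pooled and replicate 1 lists, and stood above act-3 and act-2 in replicate 2. Its highest pooled summit, at 13606422 and 356 bp upstream, had a signal of 38.3 and rank 7109. Replicate 1 had it at 13606429 (26.7, rank 7574) and replicate 2 at 13606420 (13.3, rank 8019), so the position differed by at most 9 bp and the rank little between the lists. A weaker summit lay at 13606621 in the pooled list (14.4, rank 29801) and at 13606641 in replicate 2 (7.59, rank 19322), and replicate 2 had another at 13606160 (6.48, rank 23429), 94 bp upstream. Inside act-5 and past its 3′ end no list had a summit. In whole animals, polymerase on the gene in few cells cannot be told apart from little polymerase per cell, and the sequencing depth is unknown, so the absence from the optimal list does not show absence of polymerase.

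The order of the 5 genes by their strongest summit differed between the replicates. In the pooled list it was act-4, act-2, act-1, act-3 and act-5. In replicate 1 it was act-2 (signal 177), act-4 (140), act-1 (81.0), act-3 (52.6) and act-5 (26.7). In replicate 2 it was act-4 (60.2), act-1 (29.9), act-5 (13.3), act-3 (12.6) and act-2 (12.4), the last 3 of them at ranks 8019, 8939 and 9143. Both replicates therefore put act-4 above act-1, act-3 and act-5, and act-1 above act-3 and act-5. The place of act-2, and the order of act-3 and act-5, differed between the replicates.

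**Figure D2:**
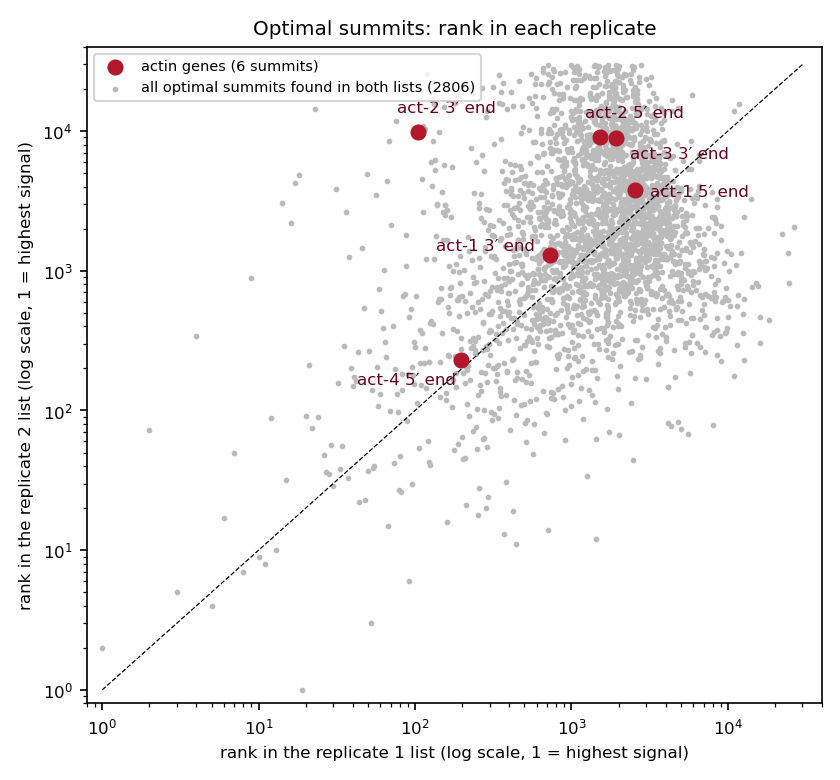
Rank by signal in the replicate 1 list (horizontal, log scale) and in the replicate 2 list (vertical, log scale) for the 6 optimal summits of the actin genes (red) and for all 2806 optimal summits found in both lists within 200 bp (grey); the dashed line marks equal ranks. The act-4 summit lies at ranks 196 and 230, close to the line, and the act-2 3′ summit at ranks 104 and 9905, far above it.

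All 6 optimal summits had a counterpart within 200 bp in both replicate lists, as did 2806 of the 3052 optimal summits. The larger of the replicate ranks was 1.17 times the smaller for act-4, 1.48 and 1.76 times for the upstream and the 3′ summit of act-1, and 4.67 times for act-3. It was 6.03 times for the upstream summit of act-2 and 95.2 times for its 3′ summit. The median over the matched optimal summits was 2.69 times. Counting the 3052 strongest regions of 1 replicate at a time, replicate 1 had a summit in the window of act-1, act-2, act-3 and act-4 (10.9% of all genes), and replicate 2 in that of act-1 and act-4 only (13.4% of all genes).

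Distances were also taken from the start codon. In the pooled list the nearest summit upstream was at -384 bp for act-1, -373 bp for act-2, -290 bp for act-3 and -356 bp for act-5, while that of act-4 was at -2 bp. In replicate 1 it was at -306 bp for act-1, -371 bp for act-2, -294 bp for act-3 and -363 bp for act-5. In replicate 2 it was at -397 bp for act-1 and -472 bp for act-2, but at -94 bp for act-5 and at -1308 bp for act-3, which had no summit in the intron there. Replicate 2 also had an act-5 summit at -354 bp. The annotated 5′ end of act-5 is the first base of its start codon, so its distances here repeat those from the 5′ end. The 2 bases just before the annotated 5′ end were AG, the end of a splice acceptor, for act-1, act-2 and act-5 and for the inner start of act-3, and were not AG for the outer starts of act-3 and for act-4. Over all protein-coding genes 27.6% of the 5′ ends followed an AG. The longer acceptor TTTCAG stood there for act-1, act-5 and the inner start of act-3, against 12.3% of all protein-coding genes. The outer start of act-3, which does not follow AG, also had its nearest pooled summit upstream, 131 bp before it.

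The sequences past the 3′ ends of act-1 and act-2, where these genes had their strongest summits, are given for comparison, with 75 bases on each side of the summit in gene direction.
act-1 past the 3′ end, chrV:11082608-11082758, plus strand: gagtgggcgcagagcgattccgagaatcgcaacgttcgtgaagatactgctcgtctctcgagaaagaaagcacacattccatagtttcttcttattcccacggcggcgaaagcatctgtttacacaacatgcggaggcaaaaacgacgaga
act-2 past the 3′ end, chrV:11076524-11076674, minus strand: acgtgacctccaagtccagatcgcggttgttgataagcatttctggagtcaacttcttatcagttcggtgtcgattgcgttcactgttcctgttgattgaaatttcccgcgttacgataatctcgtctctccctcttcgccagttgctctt
The TATA box and poly(A) letters spelled out above were in neither of them, on either strand. Nor was the splice acceptor TTTCAG, which 18.5% of all 3052 optimal summits had within 75 bp on either strand. The optimal summit of act-4 did have TTTCAG within 75 bp, on the strand of the gene. The stretches past the 3′ ends of act-1 and act-2 held 49.7% and 47.0% G and C, against a median of 43.7% over all optimal summits. The 3′ UTR summit of act-3 had 33.1%, and 2.16% of the optimal summits had less.

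Because the 5 genes are copies of each other, the sequence they share was measured. The coding sequences of act-1 and act-3 are identical in all 1128 bases. Those of act-1 and act-2 differ in 43 bases and 3 residues, those of act-1 and act-4 in 66 bases and 1 residue, and those of act-1 and act-5, compared over 375 codons from the stop codon upwards, in 182 bases and 29 residues. A stretch of 60 coding bases, the first in frame in which the 3 clustered genes are identical, shows how the 5 copies differ. Capitals mark bases that differ from act-1.
act-1, chrV:11081436-11081495, plus strand: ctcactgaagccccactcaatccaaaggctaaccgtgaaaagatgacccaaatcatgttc
act-2, chrV:11077708-11077767, minus strand: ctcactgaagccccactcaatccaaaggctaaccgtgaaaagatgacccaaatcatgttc
act-3, chrV:11072821-11072880, minus strand: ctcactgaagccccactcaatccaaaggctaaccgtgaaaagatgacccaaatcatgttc
act-4, chrX:4963058-4963117, plus strand: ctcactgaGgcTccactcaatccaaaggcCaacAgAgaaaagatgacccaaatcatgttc
act-5, chrIII:13605695-13605754, minus strand: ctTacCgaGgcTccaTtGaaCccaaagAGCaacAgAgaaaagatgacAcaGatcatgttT
The genes act-1, act-2 and act-3 are the same here, act-4 differs in 5 bases and act-5 in 15.

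Runs of 36 bases that occur more than once in the genome, on either strand, made up 97.2% of the coding positions of act-1, 94.9% of those of act-3, 39.7% of those of act-2, 17.3% of those of act-4 and 1.33% of those of act-5. The whole genome had 7.93%. Nearly all of these copies were other actin genes, since 1157 positions of the act-1 window had their copy in act-3, 466 in act-2, 186 in act-4 and 15 in act-5, and none elsewhere. In the 1000 bp upstream of each of the 5 genes, and in the 500 bp past the 3′ ends of act-1, act-2, act-3 and act-4, the repeated share was 0%. The flank past the 3′ end of act-5 had 19.0%, all of it with copies outside the actin genes.

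The places of the summits were set beside these shares. In the 6 optimal regions of the actin genes the repeated share was 0%, as in 94.04% of all optimal regions. Between the start and the stop codon of act-1 and of act-3, 1228 and 1229 bp long, no list had a summit. The less repeated coding span of act-2 held 2 pooled summits, 2 of replicate 1 and none of replicate 2, and that of act-4, which includes its first intron, held 6, 7 and 5. The coding span of act-5, with hardly any repeated sequence, held none either. The pooled regions over the coding exons of act-2 had repeated shares of 50.3% and 7.19%, and those over the coding exons of act-4 30.3% and 14.1%. Summits between start and stop codon were not counted over all protein-coding genes, so these counts have no background beside them. Over whole windows the median of all genes was 0 per kb in the pooled and replicate 1 lists. In the replicate 2 list it was 0.150 per kb. No source used here gives the read length or the treatment of reads that match several places. Whether repeated sequence has a part in these counts was not tested.

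**Figure D3:**
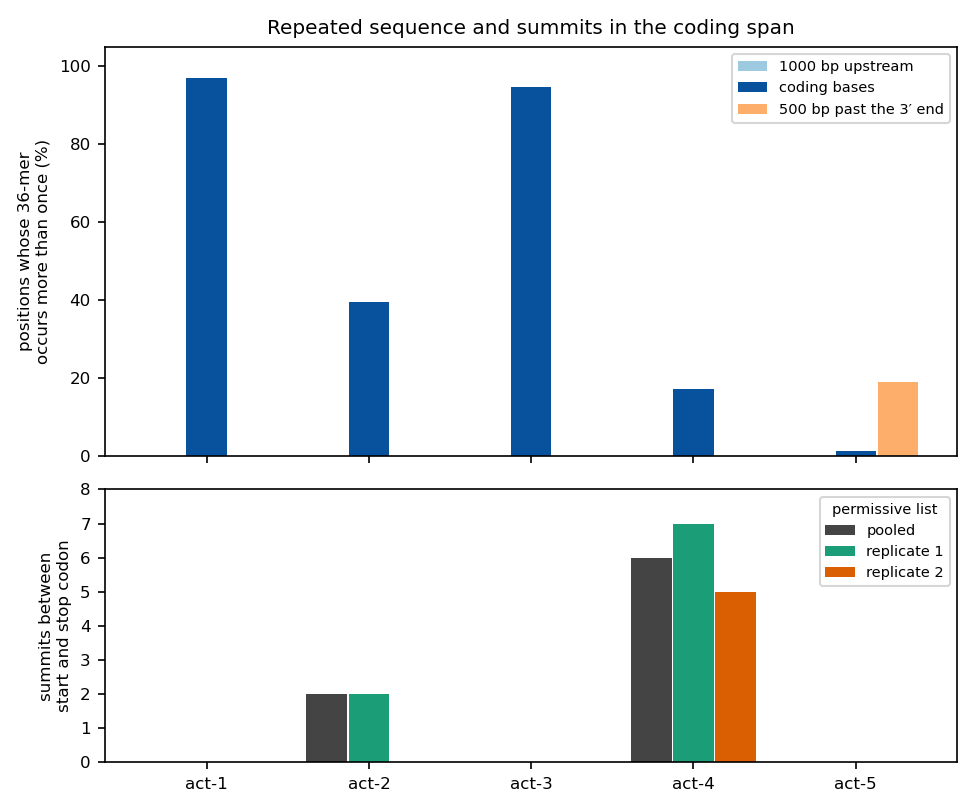
The upper panel gives, for each actin gene, the share of positions (%) whose 36 bases occur more than once in the genome, upstream, in the coding bases and past the 3′ end; the lower panel gives the number of summits between start and stop codon in the 3 permissive lists. The genes act-1 (97.2%) and act-3 (94.9%) have no summit there, and neither has act-5 (1.33%). The same count was not made over all protein-coding genes.

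Genes whose products assemble, branch, crosslink or anchor actin filaments were counted with the same window. Of 51 such genes, 13 had an optimal summit (25.5%, against 11.9% of all protein-coding genes), but their median length was 6035 bp, against 2027 bp for all, and a longer gene has a longer window. Within 500 bp of the 5′ end, where length does not enter, 4 of 51 had one, namely ani-1, cap-2, unc-60 and gex-3, against 6.07% of all genes. The list was therefore close to the background at its 5′ ends.

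The strongest of these was at ani-1, the anillin gene of the contractile ring, with a signal of 158 (rank 301, and ranks 414 and 231 in replicates 1 and 2), but its summit lay 98 bp from the 3′ end of scav-3 and 115 bp upstream of ani-1. The gene cap-2, a subunit of the protein that caps filament ends, had a summit 225 bp upstream (signal 112, ranks 894 and 787 in replicates 1 and 2). The profilin gene pfn-1 had its strongest summit 962 bp upstream (98.7, ranks 1210 and 1251). The calponin-like gene cpn-3 had a summit 155 bp past its 3′ end (92.7, ranks 2042 and 2806). The cofilin gene unc-60, whose product severs filaments, had one 344 bp upstream (86.9, ranks 967 and 4850). Those at wve-1, a gene of the WAVE complex that activates Arp2/3 (84.7), at the spectrin gene unc-70 (74.8) and at the vinculin gene deb-1 (69.98) completed the 8 strongest, and the deb-1 summit lay nearer to the 5′ end of rps-4, at 233 bp. All of these signals were below that of act-4.

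An optimal summit was found at 0 of 11 troponin and tropomyosin genes, 0 of 11 thick filament genes and 0 of 12 genes of the intestinal brush border, against 11.9% of all protein-coding genes. With lists this short, a count of 0 does not set them apart from that share. In the permissive pooled list 9 of 11, 11 of 11 and 11 of 12 of them had a summit, against 48.1% of all protein-coding genes. The median gene lengths of these lists were 1757, 7527 and 4970.5 bp, against 2027 bp for all, so that the windows of the thick filament and brush border genes were longer. Of the non-muscle myosins 1 of 10 had an optimal summit, at mlc-5, 245 bp from the 5′ end of taf-9. The tubulins, the other main cytoskeletal family, had 6 of 16, against 11.9% of all protein-coding genes, namely tbg-1, tba-2, tbb-2, tba-7, tbb-1 and tba-1. Of these, the summits of tbg-1, tbb-2 and tba-7 lay nearer to an end of ubc-7, C36E8.4 and dpy-18, at 98, 102 and 206 bp. The 16 tubulins had a median length of 2530.5 bp. At a fixed distance of 500 bp, 3 of 16 had an optimal summit at the 5′ end (6.07% of all genes). At the 3′ end 4 of 16 had one (5.81% of all genes). No test between these lists was made.

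**Figure D4:**
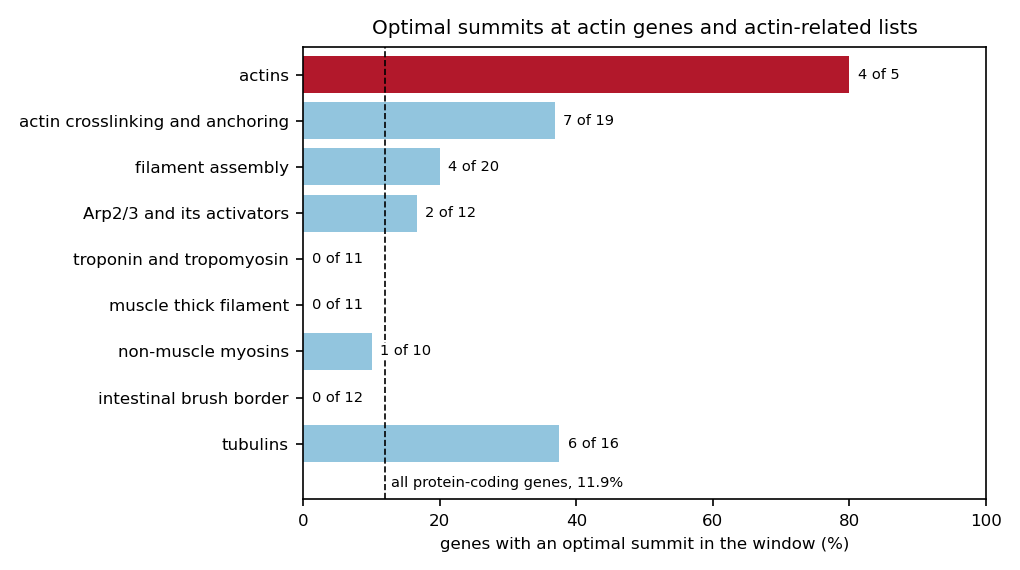
Share of genes (%) with an optimal summit from 1000 bp upstream to 500 bp past the 3′ end, for the actins (red, 4 of 5) and for lists of related genes (blue), with the counts beside the bars; the dashed line is the share of all protein-coding genes (11.9%). The actins lie above the line, while the troponin and tropomyosin, thick filament and brush border lists have no gene with an optimal summit.

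The genes whose strongest optimal summit had replicate ranks most like those of act-4 were sought among 2272 protein-coding genes, by the distance between the log10 ranks in the 2 replicates. The nearest were Y71F9AL.8 and Y71F9AL.9, which share 1 summit at 2878694 on chromosome I with ranks 181 and 246 in replicates 1 and 2 (distance 0.0453). The next was oaz-1, named for ornithine decarboxylase antizyme, with a summit 37 bp past its 3′ end at ranks 211 and 205 (distance 0.0594). Likeness over 2 samples describes only these ranks.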

How the data were processed

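ChIP-seq against AMA-1 was deposited for 2 biological replicates of N2 L3 larvae as peak lists in narrowPeak format. Per the deposited description of the files, the permissive lists of 30000 regions were made from the alignments of each replicate, or of both together, and a control, and the optimal list from the pooled and replicate lists together. Aligner, peak caller, threshold, read length and depth: not given in the sources used here. Each signal value (column 7) and −log10 q value (column 9) is the authors' own, as deposited. Lists in ce10 were not used.

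Summits were taken as column 2 plus column 10, counted from 1, and set against the Ensembl release 115 annotation of WBcel235, whose assembly is that of ce11. Ranks are by signal, 1 being the highest. Summits of different lists were matched within 200 bp. Repeated sequence was the share of positions whose 36 bases occur again exactly on either strand of the 6 chromosomes. Python 3.11.15, pandas 2.3.3, NumPy 2.4.6 and Biopython 1.88 were used, and the counting rules were tested on simulated data. Genes named are the 5 actins, genes nearer to a named summit, up to 8 genes per list with the strongest optimal summit, and the 3 genes most like act-4 in replicate ranks. The members and lists were chosen with earlier results of these data known. No p-value was computed, since the design has 1 group, so the samples give no error beyond their 2 values.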

Additional observations from a re-analysis of the deposited data

How the results depend on the processing

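Of 62 alternative values, 37 stayed close to the reported value (counts within 1.5 times) and 25 moved. The repeated share was instead held to a 95% binomial interval, which treats neighbouring positions as independent. By that narrow rule its values with 24, 50 and 100 bases were all counted as moved. The number of actin genes with an optimal summit in the window was 3 under a stricter threshold (the stronger 50% of optimal peaks), 2 to 4 when either replicate was left out, and 4 under a looser one (2 times as many regions, from the pooled list), any overlap, the nearest gene end only or other windows. Within 500 bp of the 5′ end it was 1 (act-4) under the stricter threshold, 1 (act-4) at a distance of 250 bp, and 1 to 3 when either replicate was left out, act-4 remaining without replicate 1. At the 3′ end it was 1 to 3 when either replicate was left out, act-1 remaining without replicate 1. The 51 actin-binding and actin-regulating genes gave 6 under the stricter threshold, 20 under the looser one, 8 with the nearest gene end only and 12 to 14 when either replicate was left out. By the −log10 q value 14 of 19 best ranks became 1, because 2667 optimal, 3811 replicate 1 and 2064 replicate 2 regions share the highest value of their list. The pooled summits, 22 in the 5 windows, numbered 21 in each replicate list, and all 6 optimal summits were matched at 100 and 500 bp. The repeated share of the 5 windows was 16.8% with 36 bases, 19.4% with 24, 15.1% with 50 and 11.95% with 100. No paired analysis was possible because there was 1 group. The depth per library is unknown, so a gene without a summit is one at which none was detectable.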
